A study of Mus musculus with 6 samples.

Results

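The oxidative phosphorylation (OXPHOS) genes of both genomes were followed in the arcuate nucleus (ARC), the cell group at the base of the hypothalamus that holds Kiss1 neurons. Male mice received normal chow with 16.5% fat (NCD) or a diet with 60% fat (HFD) for 16 weeks from 4 weeks of age, and the ARC was cut from 20 μm frozen sections by laser capture microdissection. Each diet had 3 RNA-seq libraries, called NCD1 to NCD3 and HFD1 to HFD3 by their labelled numbers. The labels give no strain for the sequenced mice and do not say whether a library came from 1 animal, so p-values measure only the spread between these samples, which may be technical. No other treatment or genotype is labelled, and the 6 libraries share sex, age and dissection. The members were chosen by symbol: mitochondrially encoded subunits (*mt-Nd*, *mt-Co*, *mt-Atp* and *mt-Cytb*), nuclear subunits of complexes I, III, IV and V (*Nduf* without the *Ndufaf* assembly factors, *Uqcr*, *Cox4* to *Cox8*, *Atp5*) and the *Sdh* genes of complex II. Of 22322 identifiers in the table, 100 met this rule, with 13 mitochondrially encoded and 87 nuclear genes. The nuclear genes comprised 39 of complex I, 4 of complex II, 8 of complex III, 18 of complex IV and 18 of complex V.

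OXPHOS takes electrons from nutrients along complexes I to IV of the inner mitochondrial membrane and uses the proton gradient that results to make ATP at complex V. Most subunits are nuclear genes translated in the cytosol and imported, whereas a few hydrophobic core subunits are read from the circular mitochondrial chromosome, so complexes I, III, IV and V are each built from the products of both genomes and complex II is nuclear alone. Neurons depend on this pathway for most of their ATP, and mitochondria of ARC neurons have been studied for their part in the sensing of nutrients.

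The mitochondrial messenger RNAs are packed with few spare bases, and some share bases with their neighbour, which bears on how reads can be divided between them. In the annotation of GRCm38 used here, *mt-Atp8* (ENSMUSG00000064356, chrM:7766-7969, plus strand) shares its last 43 bases with the start of *mt-Atp6*, which is 21.1% of *mt-Atp8*. The last 7 bases of *mt-Nd4l* are the first of *mt-Nd4*. Both pairs are known to be translated from shared transcripts. The sequences below are the whole of *mt-Atp8* and the last 60 bases of *mt-Nd4l* (chrM:10114-10173, plus strand), 5′ to 3′, with the shared bases in capitals.
mt-Atp8: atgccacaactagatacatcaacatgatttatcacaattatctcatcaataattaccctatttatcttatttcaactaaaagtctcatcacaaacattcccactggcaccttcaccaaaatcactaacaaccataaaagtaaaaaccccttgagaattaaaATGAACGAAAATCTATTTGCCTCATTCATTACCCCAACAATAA
mt-Nd4l: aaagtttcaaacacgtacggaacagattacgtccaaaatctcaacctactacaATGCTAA
The end of *mt-Nd5* and the end of *mt-Nd6*, the 1 member on the minus strand of this chromosome, overlap over 14 bases on opposite strands. The sources used here do not say whether counting used strand, so reads within these 14 bases cannot be assigned to 1 of the 2 genes. All 13 mitochondrial rows of the table are protein coding, and 3 of them (*mt-Co3*, *mt-Nd4* and *mt-Cytb*) have a length that is not a multiple of 3 and end in a leftover T, the first base of a stop codon that is known to be completed by the added poly(A) tail.

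The tissue label was checked first. Markers of ARC neurons summed to 1971, 3165 and 2481 CPM (counts scaled to the library total of tested genes times its TMM normalization factor) in NCD1, NCD2 and NCD3 and to 2794, 2680 and 3212 CPM in HFD1, HFD2 and HFD3. *Cartpt*, a neuropeptide precursor, had the highest mean CPM of these 15 genes over the 6 libraries, although *Pomc* was above it in NCD1 and NCD2, and *Agrp*, *Pomc* and *Ghrh* had counts in every library. *Kiss1* was listed at 0 counts in NCD1 and HFD1 and had 27, 32, 21 and 42 counts in NCD2, NCD3, HFD2 and HFD3. *Kiss1* overlaps another annotated gene, so its counts depend on how reads were divided between the pair. The total count was 15925648, 9937632 and 6882449 in the NCD libraries and 8024664, 10479778 and 5171381 in the HFD libraries, so NCD1 was the deepest and HFD3 the shallowest. A count of 3, taken as the smallest detectable amount, corresponded to 0.181 CPM in NCD1 and to 0.564 CPM in HFD3 on the same scale.

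The mitochondrially encoded genes took more of each library than the nuclear OXPHOS genes, and their share moved between libraries of the same diet more than between diets. The 13 genes held 3.2%, 4.24% and 6.57% of all counts in NCD1, NCD2 and NCD3. They held 4.16%, 3.51% and 5.77% in HFD1, HFD2 and HFD3. The diets overlapped, with means of 4.67% ± 1.73 for NCD and 4.48% ± 1.16 for HFD (SD, n = 3). The highest shares were in NCD3 and HFD3, which also had the fewest counts of their diet, and the lowest was in NCD1, the deepest library. Counting error was small beside this spread: the Wilson 95% interval was 3.19% to 3.2% in NCD1 and 5.75% to 5.79% in HFD3. Such intervals leave out all but counting error, and PCR copies of 1 molecule cannot be recognised in these reads.

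The 87 nuclear members held 1.8%, 2.52% and 3.03% of counts in NCD1, NCD2 and NCD3. In the HFD libraries they held 2.74%, 2.76% and 2.7%. The HFD values sat inside the NCD range, with means of 2.45% ± 0.619 for NCD and 2.73% ± 0.0288 for HFD (SD, n = 3). The low NCD1 value set most of the width of the NCD group. The ratio of mitochondrial to nuclear counts was 1.78, 1.68 and 2.17 in NCD1, NCD2 and NCD3. It was 1.52, 1.27 and 2.13 in HFD1, HFD2 and HFD3. The diets overlapped again, with a mean of 1.88 ± 0.257 for NCD and 1.64 ± 0.444 for HFD (SD, n = 3). In these bulk samples, fewer cells of a type and less RNA per cell cannot be told apart. With 3 samples against 3, an exact permutation test cannot give a p below 0.1, and no test was made on these summed values.

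**Figure D1:**
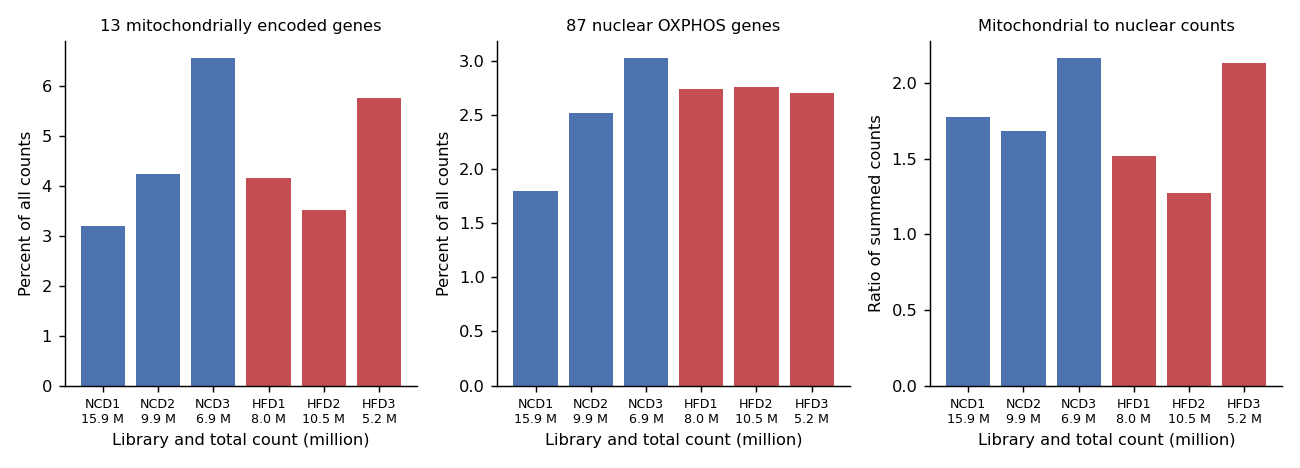
Percent of all counts in the 13 mitochondrially encoded genes (left), percent of all counts in the 87 nuclear OXPHOS genes (middle) and ratio of their summed counts (right), 1 bar per library, NCD in blue and HFD in red, with the total count under each library. NCD3 and HFD3 had the highest mitochondrial share, at 6.57% and 5.77%, and NCD1 had the lowest nuclear share, at 1.8%.

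Among the mitochondrially encoded genes, levels were compared as FPKM, which is scaled to gene length. The ATP synthase subunit *mt-Atp6* had the highest mean over the 6 libraries, at 9092 FPKM, followed by the cytochrome c oxidase subunit *mt-Co3* at 8854 FPKM. Next came *mt-Co1*, which carries the oxygen-reducing site of complex IV, with 5907 FPKM, *mt-Cytb*, the only mitochondrially encoded subunit of complex III, with 5652 FPKM, and *mt-Co2* with 5356 FPKM. The complex I subunits were lower in mean FPKM, from 4385 for *mt-Nd1* and 2634 for *mt-Nd4* through 1750 for *mt-Nd2*, 1607 for *mt-Nd4l*, 1352 for *mt-Nd6* and 1219 for *mt-Nd3* to 840 for *mt-Nd5*, and *mt-Atp8* had 2851 FPKM. The ranges of neighbours in this order overlapped in many cases, and *mt-Co3* was above *mt-Atp6* in FPKM in NCD3 and all 3 HFD libraries, with HFD means of 9111 and 8704 FPKM. *mt-Co1* had 3401, 5183 and 8543 FPKM in NCD1, NCD2 and NCD3 and 5858, 5445 and 7012 FPKM in HFD1, HFD2 and HFD3. *mt-Cytb* had 5143, 5486 and 7078 FPKM in the NCD libraries and 5015, 4549 and 6639 FPKM in the HFD libraries. Both were highest in NCD3, and so were all 13 genes in CPM. The lowest CPM was in HFD2 for 8 of the 13 and in NCD1 for the other 5.

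**Figure D2:**
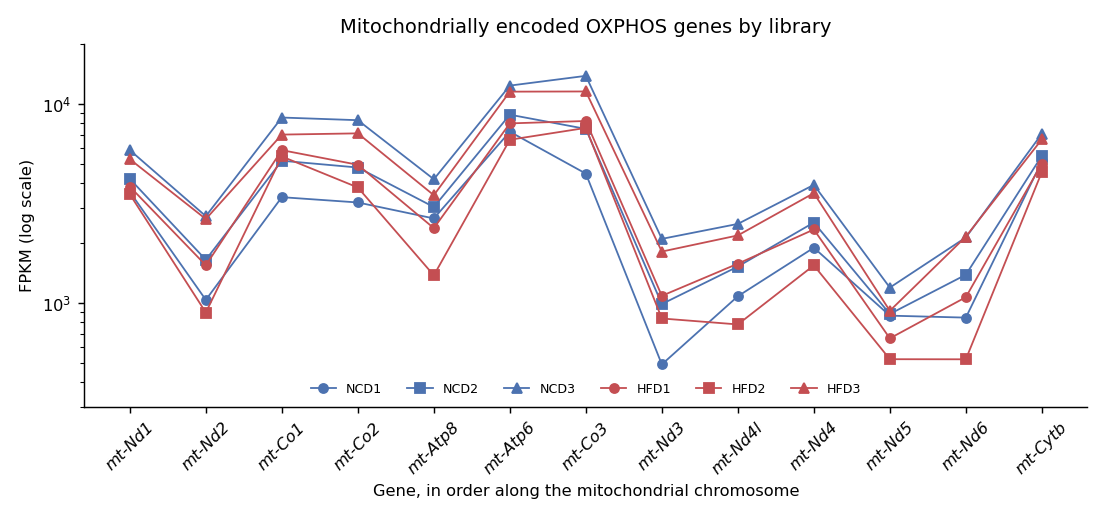
FPKM on a log scale of the 13 mitochondrially encoded genes in their order along the chromosome, 1 line per library, NCD in blue and HFD in red, with circles, squares and triangles for libraries 1, 2 and 3. The lines of NCD3 and HFD3 run highest for most genes, *mt-Atp6* and *mt-Co3* have the highest mean levels, and *mt-Nd5* has the lowest mean, at 840 FPKM.

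The makeup of the mitochondrial counts differed between libraries as well as their sum. *mt-Co1* took 16.4%, 18.9% and 20.1% of mitochondrial counts in NCD1, NCD2 and NCD3 and 21.7%, 24.0% and 18.8% in HFD1, HFD2 and HFD3. *mt-Cytb* took 18.4% in NCD1 and 12.3% to 14.8% in the other libraries. NCD1 was thus the library in which *mt-Cytb* exceeded *mt-Co1* by this share. HFD2 was low in several of the less abundant genes: *mt-Nd6* took 0.771% there against 1.33% to 1.94% elsewhere, and *mt-Nd4l* took 0.66% against 1.005% to 1.13%. For *mt-Nd5*, whose product is a proton-pumping subunit of complex I, the share of mitochondrial counts was 4.93%, 3.79% and 3.32% in NCD1, NCD2 and NCD3 and 2.91%, 2.71% and 2.89% in HFD1, HFD2 and HFD3. For *mt-Atp8*, a small subunit of complex V, it was 1.7%, 1.46% and 1.3% in the NCD libraries and 1.16%, 0.8% and 1.23% in the HFD libraries. These 2 of the 13 genes did not overlap between diets on this scale, both lower in HFD, and 5.18% of all 14188 genes tested did not overlap when their counts were divided by the mitochondrial counts in the same way.

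The overlapping neighbours were also set against each other. The FPKM of *mt-Atp8* over that of *mt-Atp6* was 0.367, 0.344 and 0.339 in NCD1, NCD2 and NCD3. It was 0.298, 0.208 and 0.302 in HFD1, HFD2 and HFD3. The diets did not overlap, although the gap between NCD3 and HFD3 was small beside that between HFD2 and the other HFD libraries. This ratio draws on the same *mt-Atp8* counts as the share above. How often ratios of other gene pairs fail to overlap was not computed. The FPKM of *mt-Nd4l* over that of *mt-Nd4* ranged from 0.505 in HFD2 to 0.673 in HFD1, and the diets overlapped. The ratio of *mt-Nd6* to *mt-Nd5*, in FPKM, ranged from 0.978 in NCD1 to 2.36 in HFD3, and the diets overlapped here too.

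The nuclear genes spread over a wide range of levels. The mean FPKM was 100 or more for 74 of the 87 nuclear members and under 50 for 10, and the median was 418 FPKM, against 2851 FPKM for the mitochondrially encoded genes. Complex I ranged from 998 FPKM for *Ndufa4*, a subunit first assigned to complex I that is now placed with complex IV, to 2.82 FPKM for its paralogue *Ndufa4l2*, with a median of 412 FPKM. Core subunits, which carry the flavin and the iron-sulphur clusters or lie next to them, were below that median: *Ndufv2* had a mean of 361 FPKM, *Ndufs7* 275, *Ndufs8* 255, *Ndufs3* 161, *Ndufv1* 94.5 and *Ndufs1* 64.2. *Ndufs1*, the largest iron-sulphur subunit, had 85.6, 60.6 and 54.3 FPKM in NCD1, NCD2 and NCD3 and 51.3, 73.6 and 59.7 FPKM in HFD1, HFD2 and HFD3. Its highest value was in NCD1, in which 66 of the 83 nuclear members tested had their lowest CPM.

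Complex II, succinate dehydrogenase, also belongs to the citric acid cycle. *Sdhb*, its iron-sulphur subunit, had the highest mean at 298 FPKM. *Sdha*, the flavoprotein, had 151 FPKM, and the membrane anchors *Sdhc* and *Sdhd* had 140 and 109 FPKM. *Sdha* had 211, 157 and 122 FPKM in NCD1, NCD2 and NCD3 and 151, 172 and 93.4 FPKM in HFD1, HFD2 and HFD3, so that within both diets it was highest in the deepest library. Complex III was led by *Uqcrb* with a mean of 734 FPKM and ended with the Rieske iron-sulphur protein *Uqcrfs1* at 124 FPKM. Complex V was led by the stalk subunit *Atp5h* at 909 FPKM. *Atp5b*, the catalytic beta subunit, had 563 FPKM, and *Atp5s*, a coupling factor, had 31.0 FPKM. A second identifier with the symbol *Atp5o* had 0 counts in every library.

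**Figure D3:**
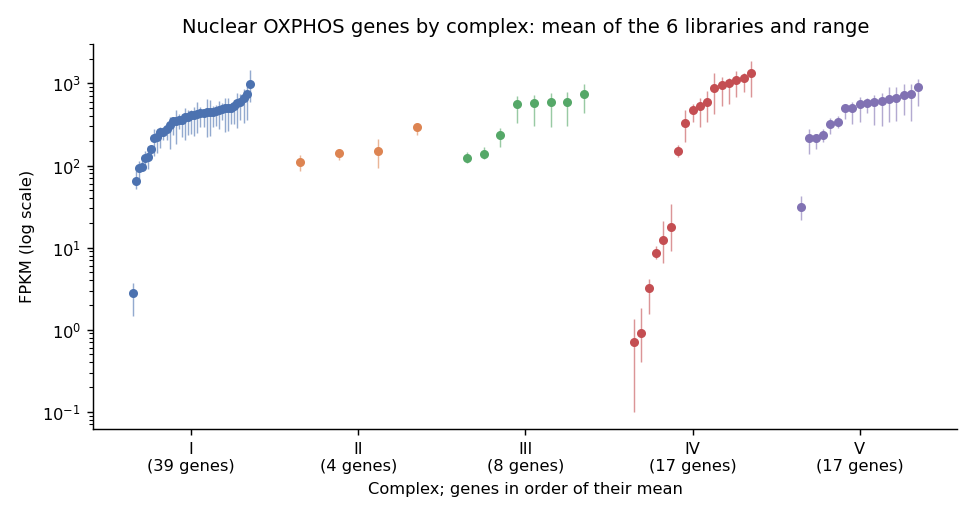
Mean FPKM over the 6 libraries, on a log scale, of the nuclear OXPHOS genes by complex, with a line from the lowest to the highest library and genes in order of their mean. A lower end at 0 is drawn at the bottom of the axis, and *Cox8c* and the second *Atp5o* identifier, at 0 in every library, are not drawn; most genes lie between 100 and 1350 FPKM, and the low points of complex IV are the tissue isoforms.

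Several complex IV subunits exist in a form found in most tissues and a second form known from heart, skeletal muscle, lung or testis, and in each such pair the general form was the main one in the ARC. *Cox6c* had the highest mean of complex IV at 1350 FPKM and *Cox4i1* had 1170 FPKM. *Cox4i2*, the form known from lung, had 0.116% to 0.366% of the FPKM of *Cox4i1* across the 6 libraries. *Cox6a2*, known from heart and muscle, had 1.16% to 2.91% of the FPKM of *Cox6a1*. For *Cox7a1* against *Cox7a2* the range was 1.28% to 3.27%, for the testis form *Cox6b2* against *Cox6b1* it was 0.643% to 1.37%, and for *Cox8b* against *Cox8a* it was 0.0286% to 0.181%. *Ndufa4l2*, known to be induced by low oxygen, had 0.153% to 0.383% of the FPKM of *Ndufa4*. The diets overlapped in each of these ratios. *Cox8b* rested on 1 to 7 counts and *Cox7b2* on 0 to 5 counts a library, so neither was tested between diets, and *Cox8c* had 0 counts in all 6, which allows at most 3 counts a library. Skeletal and heart muscle markers were low, with a sum of 52.7 to 107 CPM over 10 genes, of which 5 had a mean under 1 CPM; *Myh7* held most of that sum, with 40.8 to 92.9 CPM. The part of such cells in the isoform levels was not tested.

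Promoter sequence was looked at because many nuclear members shared the library of their lowest CPM, NCD1 for 66 of the 83 tested, and 47 were highest in NCD3. The members did not all move alike between the other libraries. RefSeq windows of GRCm38.p6, from 250 bases before to 50 after the start, matched 67 of the 86 nuclear symbols. They were searched on both strands for 4 motifs of factors known to act on respiratory genes: GCGCATGC for NRF1, AAGATGGCG for YY1, CCGGAAGT for GABPA and TCAAGGTCA for ESRRA. The NRF1 motif was in 10 of the 67 windows (14.9%) against 3.05% of 27025 windows of all genes. The YY1 motif was in 7 (10.4%) against 1.64%, the GABPA motif in 5 (7.46%) against 4.31% and the ESRRA motif in 2 (2.99%) against 0.466%. The windows of all genes were not matched to the members for level. These shares thus cannot set the members apart from other highly expressed genes. A match is a run of letters and not evidence of binding. The windows below show the NRF1 motif in *Cox6a1* (chr5:115348909-115349208), the YY1 motif in *Atp5j* (chr16:84834927-84835226), 2 copies of the GABPA motif in *Cox8a* (chr19:7217567-7217866) and, for contrast, *Cox7b2* (chr5:71548156-71548455), the member with the lowest mean FPKM above 0, in which none of the 4 was found. All 4 genes are on the minus strand, the sequences run 5′ to 3′ along the gene, and capitals mark the motif in either direction, merged where the NRF1 motif overlaps its reverse complement.
Cox6a1: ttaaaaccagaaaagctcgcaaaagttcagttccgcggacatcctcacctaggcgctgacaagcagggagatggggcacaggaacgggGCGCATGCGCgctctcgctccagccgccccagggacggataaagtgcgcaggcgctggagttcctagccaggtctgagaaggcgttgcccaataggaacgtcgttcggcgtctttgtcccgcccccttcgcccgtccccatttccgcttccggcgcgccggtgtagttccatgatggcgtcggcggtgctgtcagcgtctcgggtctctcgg
Atp5j: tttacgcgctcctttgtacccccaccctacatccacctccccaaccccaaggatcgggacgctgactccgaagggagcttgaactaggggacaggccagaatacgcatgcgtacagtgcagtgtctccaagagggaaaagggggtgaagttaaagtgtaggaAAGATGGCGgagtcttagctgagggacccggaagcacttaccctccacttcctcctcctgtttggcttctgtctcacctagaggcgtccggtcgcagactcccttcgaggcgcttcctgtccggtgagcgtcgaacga
Cox8a: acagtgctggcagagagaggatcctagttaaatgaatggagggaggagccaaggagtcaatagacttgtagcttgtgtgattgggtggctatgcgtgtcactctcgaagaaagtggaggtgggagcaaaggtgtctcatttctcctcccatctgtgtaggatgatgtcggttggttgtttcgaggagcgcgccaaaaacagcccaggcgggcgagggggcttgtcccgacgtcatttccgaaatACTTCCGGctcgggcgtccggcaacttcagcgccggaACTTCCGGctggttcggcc
Cox7b2: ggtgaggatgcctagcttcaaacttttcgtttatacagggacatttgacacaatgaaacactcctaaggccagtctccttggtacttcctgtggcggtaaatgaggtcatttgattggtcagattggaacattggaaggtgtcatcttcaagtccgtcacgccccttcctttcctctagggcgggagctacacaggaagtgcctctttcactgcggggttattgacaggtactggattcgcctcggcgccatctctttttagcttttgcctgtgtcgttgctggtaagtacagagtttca
*Cox6a1*, the main form of its subunit, had 566, 977 and 1123 FPKM in NCD1, NCD2 and NCD3 and 1090, 1105 and 1172 FPKM in HFD1, HFD2 and HFD3. *Cox7b2* had 0.58, 0.74 and 1.34 FPKM in the NCD libraries and 0, 0.53 and 1.07 FPKM in the HFD libraries. Of the 67 genes with a window, 63 had a mean of at least 50 FPKM, so motif and level could not be compared over many low genes.

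The diets were then compared gene by gene. No OXPHOS gene of either genome passed the test, and no gene's groups were apart in CPM. By the quasi-likelihood test of edgeR, with Benjamini-Hochberg adjustment over 14188 genes and an adjusted p under 0.05, 0 of the 96 members tested were called, against 8 of all genes tested (0.0564%). At an unadjusted p under 0.05 with a fold change above 1.5, the rule named in the study's methods, 0 members passed against 1.9% of all genes. At an unadjusted p under 0.05 alone, 0 members passed against 2.3%, and 0 members had diets that did not overlap in CPM against 6.47%. DESeq2 called 0 members after adjustment, against 19 of all genes, and 1 at an unadjusted p under 0.05, *mt-Nd5*, against 2.28% of all genes. The edgeR adjusted p was 0.999 or more for all 96. The 4 members not tested were *Cox7b2*, *Cox8b*, *Cox8c* and the second *Atp5o* identifier.

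Among mitochondrially encoded genes, *mt-Nd5* (ENSMUSG00000064367, chrM:11742-13565, plus strand) had the smallest p. It had 1511, 1625 and 2257 CPM in NCD1, NCD2 and NCD3 and 1209, 984 and 1622 CPM in HFD1, HFD2 and HFD3. HFD3 lay within the NCD range and the other HFD libraries below it. The log2 fold change was -0.50 with a standard error (SE) of 0.26, and the unadjusted edgeR p was 0.0796. The log2 fold change was -0.30 without NCD3 and -0.76 with the log2 total count of each library as a covariate. *mt-Atp8* had 520, 626 and 884 CPM in the NCD libraries and 484, 290 and 691 CPM in the HFD libraries. Its log2 fold change was -0.47 (SE 0.31), which ran from -0.81 without HFD3 to -0.21 without HFD2. It was -0.89 with the total count as a covariate. *mt-Co1* had a log2 fold change of 0.08 (SE 0.33) and *mt-Co3* of 0.06 (SE 0.37). In all, the log2 fold change was below 0 for 10 of the 13 and above 0 for 3, with a median of -0.14, beside a median of 0.00 over all genes tested. The SE of most of these genes was larger than the change.

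Among nuclear genes, *Cox6a2* (ENSMUSG00000030785, chr7:128205435-128206387, minus strand) had the smallest p. It had 5.96, 8.24 and 13.4 CPM in NCD1, NCD2 and NCD3 and 14.3, 8.97 and 22.6 CPM in HFD1, HFD2 and HFD3. HFD1 and HFD3 lay above the NCD libraries and HFD2 among them, with 81 to 120 counts in each library. Its log2 fold change was 0.74 (SE 0.38), with an unadjusted edgeR p of 0.0744. This value ran from 0.36 without HFD3 to 1.10 without NCD3 and was 0.23 with the total count as a covariate. *Cox7a1* followed with 2.47, 4.78 and 4.21 CPM in the NCD libraries and 5.59, 4.04 and 8.09 CPM in the HFD libraries. Its log2 fold change was 0.63 (SE 0.40), which was 0.35 without NCD1 or HFD3 and 0.24 with the total count as a covariate. The next 3 were accessory subunits of complex I, *Ndufa13* with a log2 fold change of 0.44 (SE 0.29), *Ndufa3* with 0.42 (SE 0.30) and *Ndufb7* with 0.33 (SE 0.27). On the lower side, the smallest p values belonged to *Atp5s* with a log2 fold change of -0.30 (SE 0.22), *Ndufs1* with -0.24 (SE 0.26), *Sdha* with -0.22 (SE 0.28), *Ndufv1* with -0.13 (SE 0.25) and *Atp5b* with -0.13 (SE 0.28). These values also rested on single libraries: without NCD1 the log2 fold change was 0.17 for *Ndufa13*, 0.11 for *Ndufa3*, 0.05 for *Ndufb7* and -0.05 for *Ndufs1*. Without HFD3 it was 0.01 for *Sdha*, 0.08 for *Ndufv1* and 0.12 for *Atp5b*. With the total count as a covariate it turned above 0 for *Ndufs1* (0.05), *Sdha* (0.08), *Ndufv1* (0.08) and *Atp5b* (0.05). In that fit it was 0.27 for *Ndufa13*, 0.17 for *Ndufa3*, 0.16 for *Ndufb7* and -0.14 for *Atp5s*.

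By complex, the median log2 fold change was 0.18 for nuclear complex I (37 of 39 above 0), 0.02 for complex II (2 of 4), 0.16 for complex III (8 of 8), 0.17 for complex IV (14 of 15) and 0.13 for complex V (13 of 17). Over all 83 nuclear members tested it was 0.15, with 74 above 0, where 50.5% of all genes were above 0. In the length classes given below, from shortest to longest, 28 of 28, 26 of 27 and 20 of 28 members were above 0. Among other genes tested in the members' length range, the counts were 138 of 156, 345 of 427 and 3783 of 6916. The lean of the nuclear members rested on 1 library: without NCD1, 20 of the 83 were above 0 and the median was -0.06. The mitochondrial lean likewise turned without NCD3, with 2 of 13 below 0 and a median of 0.17, and without HFD2, with 4 of 13 below 0 and a median of 0.10. With the total count as a covariate, all 13 mitochondrially encoded genes were below 0 with a median of -0.44, and 9 of them had an unadjusted edgeR p under 0.05, where 3.15% of all genes passed; the smallest adjusted p was 0.122. In the same fit the nuclear median was 0.04, with 53 of 83 above 0. Without NCD3, 21 members had an unadjusted edgeR p under 0.05, each above 0 and all nuclear but *mt-Nd3*, where 8.13% of all genes passed, and the smallest adjusted p was 0.604. Across the 96 members the SE of the log2 fold change ran from 0.21 to 0.49, and the 95% interval included 0 for each.

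**Figure D4:**
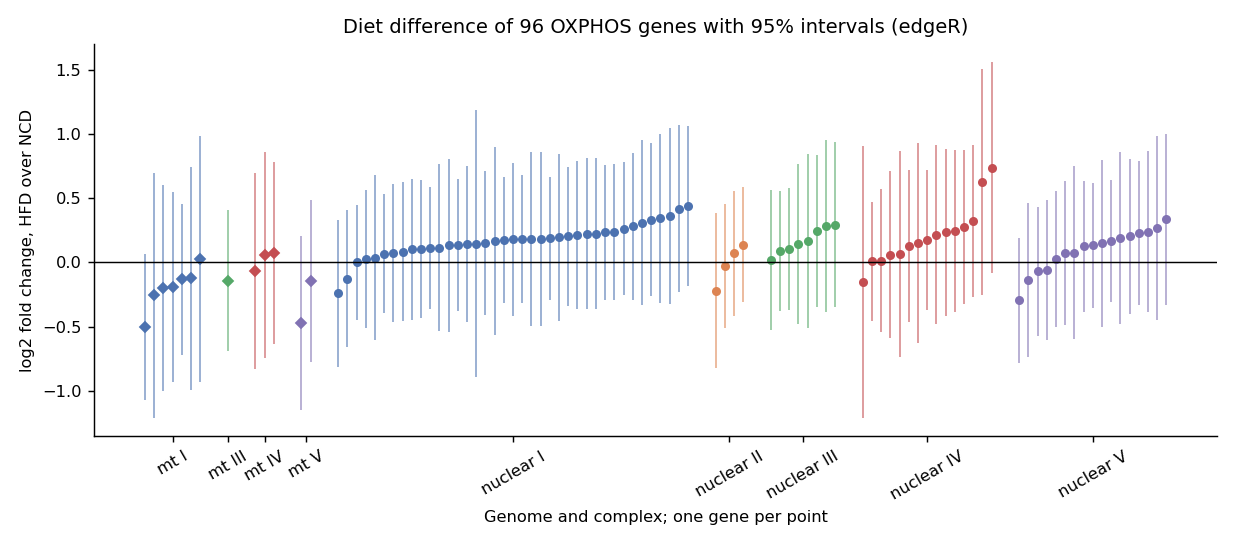
Log2 fold change of HFD over NCD for the 96 OXPHOS genes tested, 1 point a gene with its 95% interval from edgeR, in order of value within each genome and complex; diamonds are mitochondrially encoded (mt) and circles nuclear genes. Every interval crosses 0, with 10 of 13 mitochondrially encoded points below it and 74 of 83 nuclear points above it.

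The nuclear members moved between libraries by transcript length. The length behind each FPKM was worked out from the count and the FPKM, and within each diet the shallowest library was set against the deepest. In NCD3 over NCD1, 74 of 83 nuclear members had a CPM ratio above 1, with a median of 1.96. In HFD3 over HFD2, 36 of 83 were above 1, with a median of 0.95. Short genes had the high ratios in both pairs: Spearman's rho between length and ratio was -0.71 in NCD3 over NCD1 and -0.70 in HFD3 over HFD2, across 83 genes that share libraries and are not independent replicates. *Cox7c*, a small complex IV subunit with a length of 540 nt, had a ratio of 3.36 in NCD3 over NCD1 and 1.49 in HFD3 over HFD2. *Sdha*, the longest at 2900 nt, had 0.625 and 0.511, and *Ndufs1*, at 2555 nt, had 0.624 and 0.526.

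Summed over the 28 shortest nuclear members (367 to 601 nt), the level was 4600, 8035 and 11586 CPM in NCD1, NCD2 and NCD3 and 9108, 8962 and 9900 CPM in HFD1, HFD2 and HFD3. Over the 28 longest (860 to 2900 nt), it was 7279, 8709 and 8904 CPM in the NCD libraries and 8661, 9870 and 7207 CPM in the HFD libraries. The diets overlapped in both. From NCD1 to NCD3 the sum was 2.52 times as high in the shortest class, 2.03 times in the 27 genes between and 1.22 times in the longest class. Other genes tested, kept to the members' range of 367 to 2900 nt, had ratios of 2.19 (156 genes), 1.92 (427 genes) and 1.04 (6916 genes) in the same classes. From HFD2 to HFD3 the ratios were 1.1, 0.952 and 0.73 in the members and 1.21, 1.02 and 0.829 in the other genes. Over these 7499 other genes, Spearman's rho between length and log2 ratio was -0.43 in NCD3 over NCD1 and -0.07 in HFD3 over HFD2. Of them, 6916 lay in the longest class, so these values cannot be set against the rho of the members. The median log2 fold change between diets was 0.20, 0.17 and 0.07 in the 3 classes of members and 0.27, 0.19 and 0.03 in those of the other genes. Complex II, with long transcripts, took 6.5%, 4.55% and 3.36% of nuclear OXPHOS counts in NCD1, NCD2 and NCD3 and 4.02%, 4.44% and 3.28% in HFD1, HFD2 and HFD3. Depth moved with this pattern, and with the total count as a covariate 53 of 83 nuclear members were above 0 with a median of 0.04, as given above. The cause of the length pattern was not tested.

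**Figure D5:**
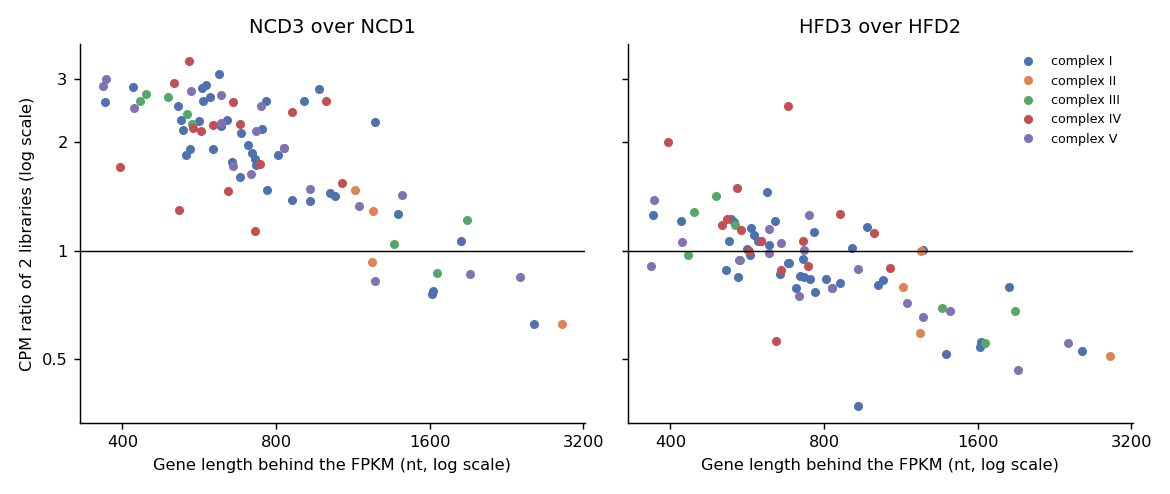
CPM ratio of the shallowest over the deepest library of each diet (NCD3 over NCD1 left, HFD3 over HFD2 right) against the length behind the FPKM, both on log scales, for the 83 nuclear members tested, coloured by complex. The ratio falls with length in both panels, with Spearman's rho of -0.71 and -0.70, and the longest genes lie below the line at 1.

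Genes outside the symbol rule that bear on the pathway were taken from 5 fixed lists. None passed at an adjusted p under 0.05 in edgeR in any of these lists, and 1 of the 116 genes tested passed at an unadjusted p under 0.05 (0.862%), against 2.3% of all genes. Among 46 assembly factors tested, which insert cofactors and subunits into the complexes, 32 had a log2 fold change above 0, with a median of 0.14. Without NCD1 these values were 25 and 0.01. *Cox17*, a copper chaperone of complex IV, was the most abundant of them by CPM, with 118, 202 and 285 CPM in NCD1, NCD2 and NCD3 and 236, 236 and 278 CPM in HFD1, HFD2 and HFD3. Of 25 genes that copy, transcribe or process mitochondrial DNA and RNA, 11 were above 0 and 14 below, with a median of -0.05. *Tfam*, which packages mitochondrial DNA and starts its transcription, had a log2 fold change of -0.12 (SE 0.21) and the mitochondrial RNA polymerase *Polrmt* of -0.20 (SE 0.27). *Fastkd5*, needed for the processing of some mitochondrial transcripts, had 14.9, 12.6 and 9.93 CPM in the NCD libraries and 6.59, 8.28 and 4.89 CPM in the HFD libraries, with no overlap, as 6.47% of all genes had none. Its log2 fold change was -0.91 (SE 0.30), with an unadjusted edgeR p of 0.0101 and an adjusted p of 0.999. Of the same 25 genes, *Mterf2* with a log2 fold change of 0.22 (SE 0.21) and *Hsd17b10* with 0.30 (SE 0.20) did not overlap either, both higher in HFD, and neither did 6 of the 46 assembly factors, all higher (*Ndufaf3*, *Sdhaf1*, *Sdhaf2*, *Uqcc3*, *Cox18* and *Coa7*). *Dlst* of the citric acid cycle was the other, lower in HFD at a log2 fold change of -0.17 (SE 0.19). In all, 10 of the 116 genes (8.62%) did not overlap, against 6.47% of all genes. By list, the share was 13% of the assembly factors and 12% of the 25 genes for mitochondrial DNA and RNA. It was 4.55% of the citric acid cycle list and 0 in the lists of regulators and of carriers.

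The 9 nuclear regulators, such as the coactivator *Ppargc1a*, split into 4 above and 5 below 0, with a median of -0.04. *Ppargc1a* had 38.8, 41.6 and 47.5 CPM in NCD1, NCD2 and NCD3 and 36.7, 36.4 and 42.5 CPM in HFD1, HFD2 and HFD3, which overlapped. Of 22 genes of the citric acid cycle and pyruvate dehydrogenase, 3 were above 0 and 19 below, with a median of -0.17. The most abundant by CPM, the malate dehydrogenase *Mdh2*, had a log2 fold change of 0.03 (SE 0.24), and *Cs*, citrate synthase, had -0.23 (SE 0.21). The median length in this list was 2483 nt, against 1581 nt for the assembly factors, and the split depended on single libraries: it was 11 to 11 without HFD3, 2 above to 20 below 0 without HFD1 and 0 above to 22 below without HFD2, where the median was -0.29. It was 2 above to 20 below with the replicate block and 15 above to 7 below 0 with the total count as a covariate. Of 14 carriers and cytochrome genes, among them *Cyc1*, a complex III subunit that the symbol rule did not take in, 8 were above 0 and 6 below, with a median of 0.01. *Slc25a4*, the adenine nucleotide translocator of the inner membrane, was the most abundant by CPM, at 858 to 1308 CPM, with a log2 fold change of 0.17 (SE 0.23).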

How the data were processed

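The deposited table held, per gene and library, the read count (not normalized) and the FPKM, which the authors computed per kilobase and scaled to mapped reads. Per the labels, mRNA was enriched with oligo(dT) beads; per the study's methods, it was sequenced on a NovaSeq, compared with ribosomal sequence by bowtie2, aligned with HISAT2 and quantified with StringTie and RSEM; the submitters' processing notes name mm10, and tool versions and strand are not given in the sources used here. The authors' group means, fold changes, p-values and FDR, from their own diet comparison, were not used.

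Identifiers were matched to GENCODE M21 (GRCm38): 22267 had a symbol and 55 did not. Counts were filtered with filterByExpr, scaled with TMM (also for CPM) and tested with edgeR 4.0.16 (R 4.3.3), with diet as the only term, after a trial on simulated data. FPKM served for levels between genes; length is the median over libraries of the value implied by count and FPKM, and was constant within 1% for 62 of 91 members with at least 10 FPKM. A further 12 processed pseudogenes of the annotation met the symbol rule but had no row. Alternatives were RLE factors, library totals alone, totals without mitochondrially encoded genes, DESeq2 1.42.0, limma 3.58.1 with trend on log2(FPKM + 1), other filters on low counts, the replicate block, the log2 total count as a covariate and each library left out. Sums, figures and sequence searches used Python 3.11.15, pandas 2.3.3, scipy 1.17.1 and matplotlib 3.10.9.

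Members and gene lists were chosen with earlier results of these data known. Named were all mitochondrially encoded members, the highest and lowest mean FPKM of each nuclear complex, the *Sdh* genes, complex I core subunits, tissue isoforms, up to 5 nuclear members with the smallest p in each direction, and list genes where their list is described. *Cox7c* and the promoters shown were chosen after their values were seen. Lists of mitochondrial ribosomal RNAs and of nuclear copies of mitochondrial genes had no row in the table, and 1 of 6 nuclear-retained RNAs had one (*Snhg11*, log2 fold change -0.18).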

Additional observations from a re-analysis of the deposited data

How the results depend on the processing

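Under each of the 15 alternatives, 0 OXPHOS genes had an adjusted p under 0.05. The number of all genes called at that threshold was 8 as reported, 19 with DESeq2, 5 with limma on log2(FPKM + 1), 15 with every gene of at least 1 count, 17 with the replicate block and 15 with the library total (log2) as a covariate, and from 1 to 16 with 1 library left out. The number of OXPHOS genes at an unadjusted p under 0.05 was 0 as reported, 1 with DESeq2 (*mt-Nd5*, lower; 2.28% of all genes), 1 with every gene of at least 1 count (*Cox6a2*, higher; 2.68% of all genes), 5 with the replicate block (*Cox6a2*, *Ndufa13* and *Ndufa3* higher, *mt-Atp8* and *mt-Nd5* lower; 4.15% of all genes), 9 with the covariate (3.15% of all genes), and from 0 to 21 with 1 library left out, the highest without NCD3 (8.13% of all genes). The causes were not tested. With 1 library left out, the median log2 fold change ran from -0.37 to 0.17 for mitochondrially encoded and from -0.06 to 0.43 for nuclear members, the difference between diets in the mitochondrial share from -0.92 to 0.76 percentage points (-0.19 as reported, and -0.67 as a share of summed FPKM), and that in the log2 ratio of mitochondrial to nuclear counts from -0.42 to -0.05 (-0.22 as reported). RLE factors, library totals alone and totals without mitochondrial genes left 10 of 13 mitochondrially encoded genes below 0 and 73 or 74 of 83 nuclear members above 0. Leaving out nuclear members that overlap other genes or have named copies (54 kept) gave a log2 ratio difference of -0.20. Same-numbered libraries of the diets were correlated over genes in log2 CPM, after each gene's mean within its diet was subtracted. These correlations of what remained were -0.01, 0.11 and 0.37, so the numbers were not taken to pair samples. The 3 libraries a diet limit what can be seen: the median SE was 0.27. Log2 fold changes as large as -0.50 for *mt-Nd5* (SE 0.26) and 0.74 for *Cox6a2* (SE 0.38) did not pass as reported. Differences of this size can thus be missed in members with an SE this large.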

Other observations

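Cell type markers were taken as sums of CPM over fixed lists, and no marker had an adjusted p under 0.05 in edgeR; at an unadjusted p under 0.05, 8 were higher and 4 lower in HFD of 95 tested (12.6%), where 2.3% of all genes passed. The 10 microglia markers summed to 456, 474 and 380 CPM in NCD1, NCD2 and NCD3 and to 495, 506 and 491 CPM in HFD1, HFD2 and HFD3, which did not overlap. None of them was at 0 in every library. *C1qb*, a complement subunit, had 64.6, 75.4 and 62.9 CPM in the NCD libraries and 92.0, 93.5 and 90.1 CPM in the HFD libraries, with a log2 fold change of 0.44 (SE 0.18, unadjusted edgeR p of 0.033). The part of these cells in the OXPHOS values was not tested.

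The diets overlapped in the sums of the other lists. General neuron markers summed to 3975 to 5024 CPM, astrocyte markers to 4070 to 4989 CPM, oligodendrocyte markers to 3073 to 5064 CPM and endothelial markers to 322 to 384.8 CPM. Pericyte and smooth muscle markers summed to 241 to 306 CPM, and the contractile genes *Acta2* and *Tagln* had log2 fold changes of -0.83 (SE 0.28) and -1.05 (SE 0.39), with diets that did not overlap in either. In all, 11 of the 95 markers tested did not overlap, 4 higher and 7 lower in HFD, where 6.47% of all genes did not; *Ly6c1*, an endothelial marker, had a log2 fold change of 0.81 (SE 0.23), *Cldn5*, another, of -0.48 (SE 0.21), and the neuropeptide gene *Cartpt* of 0.75 (SE 0.25). Tanycyte and ependymal markers summed to 328 to 571.8 CPM. Some markers with an unadjusted edgeR p under 0.05 overlapped between diets. Higher in HFD were the astrocyte gene *Gfap* (log2 fold change 0.88, SE 0.35), the tanycyte genes *Crym* (0.89, SE 0.30) and *Col23a1* (0.91, SE 0.40) and the ARC gene *Tac2* (0.60, SE 0.27). The oligodendrocyte gene *Opalin* was lower (-0.88, SE 0.33). Erythrocyte markers ranged from 782 CPM in NCD1 to 2488 CPM in NCD2, and *Hba-a2* was the most abundant of them.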
